A study of Homo sapiens with 9 samples.

Results

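The proteasome is the protease that degrades most regulatory and misfolded proteins of the cell, and 40 of its genes were followed here among 12165 genes measured. They were taken from a fixed list of gene names and comprise 14 subunits of the 20S core, 8 of the base and 6 of the lid of the 19S regulator, 3 assembly chaperones of that base, 3 immunoproteasome subunits, 4 activator genes, the inhibitor PSMF1 and the core assembly factor POMP. Levels come from Affymetrix arrays, and where several probe sets belong to 1 gene alone, the brightest on average stands for it. LNCaP, a human prostate cancer line that responds to androgen, had been kept for 2 days in charcoal-stripped serum, which is poor in steroids. The cells of all 3 groups shared this starvation and then received ethanol and DMSO as vehicle, 1 nM of the synthetic androgen R1881 with DMSO, or 1 nM R1881 with 1.25 µM celastrol, a triterpenoid. Each group held 3 arrays, called biological replicates in the labels with no statement of how the cultures were kept apart. The labels disagree on the time of the androgen group: titles give 6 h, whereas the protocol, the descriptions and the series design give 24 h, the time stated for the other groups. In every comparison with these 3 arrays, time and treatment may therefore differ together. The titles of the androgen arrays also end with celastrol in brackets, although they name R1881 and DMSO as the treatment, and those of the vehicle arrays with celastrol control.

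The cells were checked against markers of prostate luminal epithelium. All 8 measured luminal markers lay at percentile 87.3 of mean intensity or above, and the basal, leukocyte and endothelial markers at percentile 40.1 or below. Of 6 fibroblast and smooth muscle markers the brightest was the actin gene ACTA2, at percentile 57.2. Among the 14 markers of other cell types, ACTA2 rose with androgen and fell with celastrol, VWF and COL3A1 fell with androgen and COL1A1 rose with celastrol, and their part in the results was not tested. The androgen target KLK3 stood at 3040.0, 3011 and 3270.5 with vehicle, 13778, 13455 and 14078 with androgen and 7171, 7904 and 7904 with androgen plus celastrol, and the oxidative stress enzyme HMOX1 at 91.5, 91.5 and 52.8 with vehicle, 78.8, 80.1 and 51.7 with androgen and 4914, 6510.1 and 4701 with androgen plus celastrol. The arrays had median intensities from 72.2 to 80.2. The upper quartile over probe sets was 332.5 on vehicle array 3 and 377.4 to 408.7 on the other 8. Of the 40 proteasome genes, 35 had a mean intensity above percentile 80, so this gap bears on their differences from vehicle. Quantile normalization was run as an alternative. Vehicle array 3 differed from the rest, as its genes deviated from their group means with an SD of 0.308 on the log2 scale, against 0.119 to 0.201 on the other 8. In such bulk RNA, a change within every cell and one in a fraction of the cells cannot be told apart.

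In the proteasome, a barrel of alpha and beta subunits, the 20S core, encloses the proteolytic sites, and PSMB5, PSMB6 and PSMB7 carry them. The 19S regulator caps the core: its base holds a ring of ATPases that unfold and feed in the substrate, and its lid removes the ubiquitin chain. Interferon can exchange the catalytic subunits for PSMB8, PSMB9 and PSMB10, and other caps, the activators PSME1 to PSME4, can open the core without the 19S regulator. Cells whose proteasome is inhibited are known to raise its genes together, chiefly through the transcription factor NFE2L1. No proteasome activity or protein was measured here.

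Celastrol added to androgen raised genes of the core, of both parts of the 19S regulator and POMP. Against androgen alone, 22 of the 40 genes rose and none fell in the limma fit (adjusted p below 0.05 over all 12165 genes), where 9.0% of all genes rose and 7.24% fell. At an unadjusted p below 0.05, 29 were higher and 1 lower, a threshold at which the share of all genes was not counted. Proteasome genes are bright on these arrays, 38 of them above the median of all genes, and among the genes above that median 15.9% rose. The median log2 fold change of the 40 genes was 0.37, with 0.02 over all genes, and 38 of 40 were positive. On 32 genes every celastrol array lay above every androgen array, which 20.4% of all genes showed, and on 1, PSMD5, every celastrol array lay below, which 15.5% showed. In size, 6 genes passed 1.5-fold (PSMB2, PSMB6, PSMB9, PSMC4, PSMD11 and PSMD12) and 0 passed 2-fold, and the shares of all genes that did were not counted. Without androgen array 3 or celastrol array 3, 18 genes rose, and without vehicle array 3, 27 rose and 1, PSMD5, fell. Of the 22 rises, 14 held under all alternatives run.

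**Figure D1:**
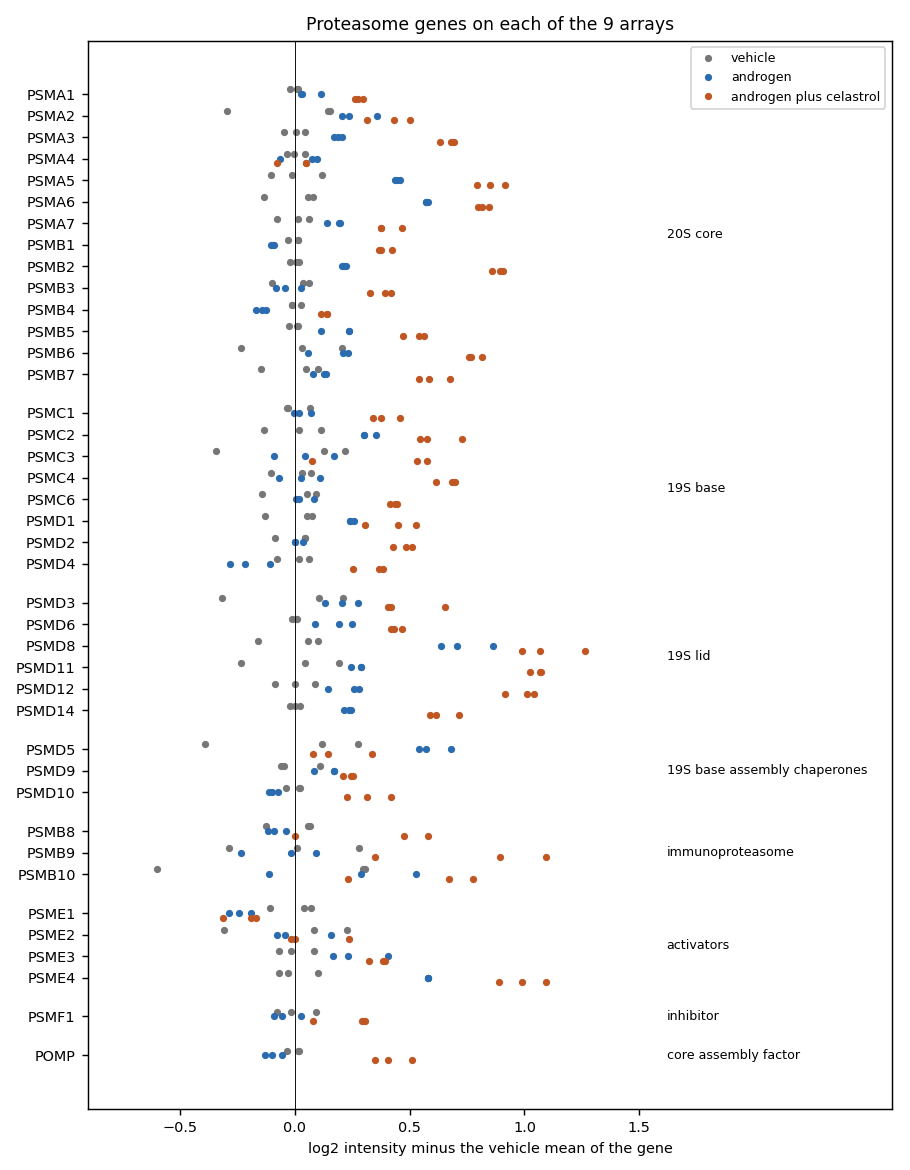
Log2 intensity of the 40 proteasome genes on each of the 9 arrays, minus the vehicle mean of the gene, grouped by role. Points are single arrays, gray for vehicle, blue for androgen and orange for androgen plus celastrol. For 30 genes all orange points lie to the right of all others; PSMD5 is the gene whose blue points lie to the right of both other groups.

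In the 20S core, 9 of 14 genes rose with celastrol. All 7 beta subunits rose (median 0.49), and 2 of 7 alpha subunits did (median 0.23), so that the 5 core genes not called were all alpha subunits. Of these, PSMA1 (adjusted p = 0.0591), PSMA6 (adjusted p = 0.0706) and PSMA7 (adjusted p = 0.0712) missed the threshold in the limma fit and passed without vehicle array 3, where 5 alpha subunits rose. In a fit over all probe sets, both other probe sets of PSMA1 were called higher (0.28 ± 0.08 and 0.30 ± 0.07, limma adjusted p = 0.0393 and 0.0240). The other probe set of PSMA7 was not called (0.29 ± 0.22, adjusted p = 0.498). PSMA2 stood at 0.15 ± 0.13 (adjusted p = 0.548). Whether alpha and beta subunits differ was not tested.

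PSMB2, a structural beta subunit, had the largest change in the core. Its intensity was 2836, 2869 and 2786 with vehicle, 3261, 3279 and 3305 with androgen and 5309, 5129.6 and 5263 with androgen plus celastrol. The 3 groups did not overlap and followed in that order, and celastrol raised it over androgen by 0.67 ± 0.07 (SE, log2 scale, limma adjusted p = 0.000259), or 1.59-fold. A second, dimmer probe set of PSMB2 also rose with celastrol over androgen in a fit over all probe sets (0.45 ± 0.10, limma adjusted p = 0.0162). For androgen over vehicle it stood at -0.01 ± 0.10 (adjusted p = 0.963). PSMB6, which carries the caspase-like site, stood at 2161, 2438 and 1799 with vehicle, 2444, 2486 and 2199.8 with androgen and 3724, 3597 and 3581 with androgen plus celastrol. Its vehicle and androgen arrays overlapped and its celastrol arrays lay above both, with a rise of 0.61 ± 0.11 (adjusted p = 0.00671).

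PSMB7, with the trypsin-like site, was read at 3264, 3391 and 2847 with vehicle, 3332, 3464 and 3446 with androgen and 4593, 4742 and 5044 with androgen plus celastrol. It too was high on the celastrol arrays alone, by 0.49 ± 0.09 over androgen (adjusted p = 0.00559). PSMB5, with the chymotrypsin-like site, was measured at 2025, 2032 and 1976 with vehicle, 2368, 2368 and 2173 with androgen and 2921, 2784 and 2967 with androgen plus celastrol. Each group lay above the one before, and the rise with celastrol was the second smallest of the beta subunits at 0.33 ± 0.07 (adjusted p = 0.0156). It did not pass without androgen array 3, without celastrol array 3 or with each array's median subtracted (adjusted p between 0.0533 and 0.0681).

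The remaining beta subunits rose by 0.49 ± 0.07 for PSMB1, 0.41 ± 0.08 for PSMB3 and 0.28 ± 0.07 for PSMB4, in which the androgen arrays stayed below the vehicle arrays for PSMB1 and PSMB4. PSMB4 (adjusted p = 0.0205) lost its call in 7 alternatives (adjusted p between 0.0538 and 0.118), among them the replicate block and the fits without any 1 androgen array or without celastrol array 2 or 3. PSMB1 lost its call when its probe sets were averaged (adjusted p = 0.272): its second probe set is dim, with a mean intensity of 54.2 against 4878 for the one used, and its log2 fold change was 0.12 ± 0.29.

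Among the alpha subunits, which form the outer rings and the gate, PSMA3 rose by 0.48 ± 0.07 (adjusted p = 0.0018). PSMA5 stood at 3196, 2919 and 2743 with vehicle, 4016, 3986 and 4049 with androgen and 5104, 5565 and 5317 with androgen plus celastrol, a stepwise order without overlap, and rose with celastrol by 0.41 ± 0.08 (adjusted p = 0.00939). PSMA6 was higher with either treatment than with vehicle, at 7585, 7701 and 6650.3 with vehicle, 10902, 10829 and 10829 with androgen and 12838, 12700.5 and 13130.1 with androgen plus celastrol; the further difference with celastrol was 0.25 ± 0.08 (adjusted p = 0.0706). PSMA4 had the smallest difference of all core genes: its arrays read 4184, 3964 and 4046 with vehicle, 3886, 4284 and 4338 with androgen and 4197, 3849 and 4202 with androgen plus celastrol and overlapped throughout. The 95% interval of its log2 fold change with celastrol ran from -0.21 to 0.15, so that a rise of the size of PSMB2 lay outside it.

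In the base of the 19S regulator, 5 of 8 genes rose with celastrol (median 0.38), 3 of them among the 5 ATPases. PSMC4, an ATPase of the ring, read 2198, 2141 and 1951 with vehicle, 1996, 2135 and 2259 with androgen and 3204, 3394 and 3366 with androgen plus celastrol. Vehicle and androgen overlapped and the celastrol arrays lay clear of both, 0.64 ± 0.08 above androgen (adjusted p = 0.00108). PSMD4, a receptor for ubiquitin chains, read 2788, 2701 and 2531 with vehicle, 2296, 2479.6 and 2196 with androgen and 3182, 3482 and 3439 with androgen plus celastrol, lowest with androgen and highest with celastrol without overlap, and rose over androgen by 0.54 ± 0.08 (adjusted p = 0.00273). PSMD2, a large scaffold subunit, read 1362, 1361 and 1247 with vehicle, 1321, 1355 and 1322 with androgen and 1776, 1852 and 1880.96 with androgen plus celastrol and rose by 0.46 ± 0.07 (adjusted p = 0.00296), with no overlap between celastrol and either other group. The smallest difference in the base was that of the other scaffold, PSMD1, at 1867, 1840.2 and 1621 with vehicle, 2120.2, 2095 and 2095 with androgen and 2558, 2188 and 2416 with androgen plus celastrol. Its groups followed in order without overlap, and the difference was 0.18 ± 0.09 (adjusted p = 0.25). A second, dimmer probe set of PSMD1 did pass in a fit over all probe sets (0.43 ± 0.10, limma adjusted p = 0.0223).

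The ATPases PSMC1 and PSMC6 rose by 0.36 ± 0.07 and 0.40 ± 0.08. PSMC2 missed the threshold with 0.30 ± 0.09 (adjusted p = 0.0559) and passed in 6 alternatives, including the fit without vehicle array 3 (adjusted p between 0.00887 and 0.0429 over the 6). PSMC3 had a difference of similar size, 0.35 ± 0.18 with a wider error (adjusted p = 0.257), and its celastrol array 1, at 1635, lay among the androgen arrays.

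In the lid, 4 of 6 genes rose (median 0.39), and all 6 had celastrol arrays above every androgen array. The 2 genes with the largest changes among all constitutive subunits were here. PSMD11, a scaffold subunit of the lid, read 1214, 1348 and 1001 with vehicle, 1439, 1439 and 1395 with androgen and 2475, 2472 and 2396 with androgen plus celastrol, and rose with celastrol by 0.78 ± 0.11 (adjusted p = 0.0015), or 1.72-fold. PSMD12, another scaffold subunit, read 1966, 2086 and 1848 with vehicle, 2349, 2384 and 2168 with androgen and 4043, 3707 and 3962 with androgen plus celastrol, and rose by 0.76 ± 0.08 (adjusted p = 0.00042). For both, vehicle lay lowest, androgen next and celastrol highest on the probe set used, with no overlap. A second, dimmer probe set of PSMD12 also rose with celastrol over androgen in a fit over all probe sets (0.63 ± 0.11, limma adjusted p = 0.00537). With androgen over vehicle it stood at -0.30 ± 0.11 (adjusted p = 0.133), opposite in sign to the probe set used. PSMD11 lost its call when its probe sets were averaged (adjusted p = 0.0540), its second probe set having a mean intensity of 48.3 against 1687.

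PSMD14, the enzyme that cuts ubiquitin chains from the substrate, was read at 3357, 3460.3 and 3404 with vehicle, 4013, 3946 and 4037 with androgen and 5600.2, 5124 and 5215 with androgen plus celastrol, in the same stepwise order. Its rise with celastrol was 0.41 ± 0.07 (adjusted p = 0.00458). PSMD6 had the smallest difference of the lid, 0.26 ± 0.07, at 4948, 4888 and 4937 with vehicle, 5633, 5239.6 and 5853 with androgen and 6592, 6798 and 6637 with androgen plus celastrol. The groups did not overlap, but the call (adjusted p = 0.0404) was lost in 12 of the alternatives, with adjusted p between 0.0517 and 0.166, including the replicate block. PSMD8 (0.37 ± 0.11, adjusted p = 0.0529) and PSMD3 (0.29 ± 0.14, adjusted p = 0.24) did not pass, though PSMD8 passed in 6 alternatives, among them the fit without vehicle array 3 (adjusted p between 0.0128 and 0.0482 over the 6).

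POMP, which escorts the unfinished core to completion, rose as well. Its intensities were 6856, 7093 and 7114 with vehicle, 6413, 6553 and 6750.0 with androgen and 9289.7, 8929.9 and 9994 with androgen plus celastrol. Androgen lay below vehicle and celastrol above both, and the rise over androgen was 0.52 ± 0.07 (adjusted p = 0.00189), near the beta subunits' median. Of the 3 chaperones of the base, 1 rose. PSMD10, also known as gankyrin, rose by 0.41 ± 0.08 (adjusted p = 0.00629) from androgen intensities of 1867, 1884 and 1917 to 2694, 2506 and 2359. With each array's median subtracted it did not pass (adjusted p = 0.0553). PSMD9 differed by 0.09 ± 0.08 (adjusted p = 0.523), at 1475, 1322 and 1312 with vehicle, 1541, 1538 and 1448 with androgen and 1618, 1581 and 1630.4 with androgen plus celastrol, where celastrol lay above androgen on all arrays.

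PSMD5 was the exception in its pattern. It stood at 399.8, 359 and 252 with vehicle, 529, 491 and 481 with androgen and 417, 365 and 349 with androgen plus celastrol. The androgen arrays were the highest, with no overlap, and the vehicle and celastrol arrays overlapped. Its log2 fold change with celastrol was -0.41 ± 0.16 (adjusted p = 0.141), and it passed as lower in 3 alternatives, among them the fit without vehicle array 3 (adjusted p between 0.0140 and 0.0380 over the 3). Androgen raised it over vehicle by 0.60 ± 0.16 (adjusted p = 0.0432), a call lost in 9 alternatives with adjusted p up to 0.301. Among these were the mean of its probe sets and the compared groups alone. The others left out vehicle array 2, any 1 androgen array or any 1 celastrol array. In a fit over all probe sets, its second, dimmer probe set stood at -0.10 ± 0.31 for androgen over vehicle (limma adjusted p = 0.908). It stood at -0.41 ± 0.31 for celastrol over androgen (adjusted p = 0.509) and at -0.51 ± 0.31 for the combined treatment over vehicle (adjusted p = 0.305).

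**Figure D2:**
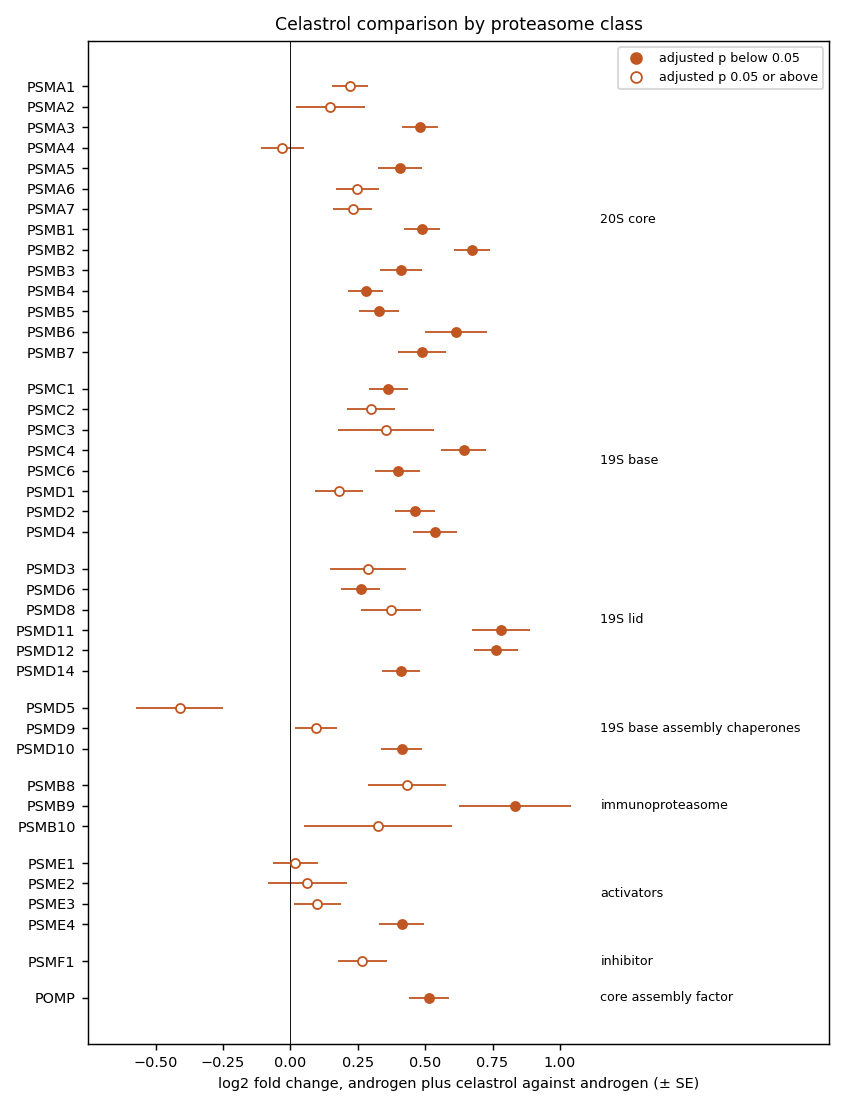
Log2 fold change of each proteasome gene for androgen plus celastrol against androgen, with its standard error from the limma fit (3 arrays a group), grouped by role. Filled points have an adjusted p below 0.05 over all genes. All 22 filled points lie to the right of 0; PSMD5 and PSMA4 are the 2 genes to its left.

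Among the immunoproteasome subunits 1 of 3 rose with celastrol (median 0.43). PSMB8 and PSMB9 were dim, as their mean intensities lay at percentiles 32.4 and 17.0 of all genes. PSMB8, which replaces PSMB5, read 47.7, 47.4 and 41.7 with vehicle, 42.7, 42.0 and 44.3 with androgen and 45.5, 63.2 and 68.0 with androgen plus celastrol. Its celastrol array 1 lay within the range of the vehicle arrays, and the difference over androgen was 0.43 ± 0.14 (adjusted p = 0.0809), which passed without that array (adjusted p = 0.00551) and with each array's median subtracted (adjusted p = 0.0364). PSMB9, which replaces PSMB6, read 30.1, 36.4 and 24.5 with vehicle, 31.9, 29.6 and 25.4 with androgen and 64.0, 38.2 and 55.7 with androgen plus celastrol. Celastrol lay above both other groups, and the gene rose by 0.83 ± 0.21 (adjusted p = 0.0264). All its vehicle and androgen values lay below the lower quartile of gene intensity on their arrays (38.9 to 44.9 over the 9 arrays), so that the size of this rise is uncertain. The call was lost without any 1 androgen array and without celastrol array 1 or 3 (adjusted p between 0.0547 and 0.0979), and PSMB9 was not tested where the dimmest 25% of genes were left out. PSMB10, which replaces PSMB7, read 219, 221 and 118 with vehicle, 218, 258 and 165 with androgen and 209.6, 285 and 306 with androgen plus celastrol, with overlap of all groups and a difference of 0.32 ± 0.27 (adjusted p = 0.533).

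Of the 4 activator genes only PSME4 rose with celastrol. PSME4 encodes PA200, a large cap of the core known from chromatin and the testis. It read 604, 537 and 551 with vehicle, 841, 841 and 841 with androgen and 1203, 1119 and 1042 with androgen plus celastrol, rising in steps without overlap, by 0.58 ± 0.08 with androgen (adjusted p = 0.00179) and by 0.41 ± 0.08 more with celastrol (adjusted p = 0.0101). The celastrol call was lost with each array's median subtracted (adjusted p = 0.0524). In a fit over all probe sets, neither of its dimmer probe sets passed for androgen (0.36 ± 0.16 and 0.08 ± 0.10, limma adjusted p = 0.229 and 0.734). Neither passed for celastrol over androgen (0.53 ± 0.16 and 0.36 ± 0.10, adjusted p = 0.0580 and 0.0509), and both were called higher over vehicle. On the probe set used, the 3 androgen values of PSME4 are equal to the precision of the table, as are those of 77 of the 12165 genes in that group. The limma fit pools the spread of the 3 groups.

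PSME1 and PSME2 encode the 2 subunits of PA28, the cap induced by interferon. PSME1 read 3239, 3310.0 and 2919.8 with vehicle, 2757, 2579 and 2658 with androgen and 2763, 2802 and 2537 with androgen plus celastrol: every vehicle array lay above the other 6, and celastrol and androgen overlapped (0.02 ± 0.08, adjusted p = 0.922). Its difference between androgen and vehicle was -0.24 ± 0.08 (adjusted p = 0.102), and it passed as lower in 3 alternatives, including quantile normalization and the fit without vehicle array 3 (adjusted p between 0.0217 and 0.0407 over the 3). PSME2 read 3582, 3962 and 2735 with vehicle, 3282, 3771 and 3205 with androgen and 3388, 3348 and 3986 with androgen plus celastrol, and all groups overlapped (0.06 ± 0.15 with celastrol, adjusted p = 0.847). PSME3, the nuclear PA28 gamma, read 1668, 1611 and 1790.4 with vehicle, 1979, 1895 and 2234 with androgen and 2112, 2216 and 2203 with androgen plus celastrol; vehicle lay below the other groups, which overlapped each other (0.10 ± 0.09 with celastrol, adjusted p = 0.549). PSMF1, the inhibitor PI31, read 1205, 1117 and 1071 with vehicle, 1059, 1088 and 1151 with androgen and 1193, 1385 and 1396 with androgen plus celastrol. Its celastrol arrays lay above the androgen arrays but overlapped with vehicle, and the difference was 0.27 ± 0.09 (adjusted p = 0.0898).

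**Figure D3:**
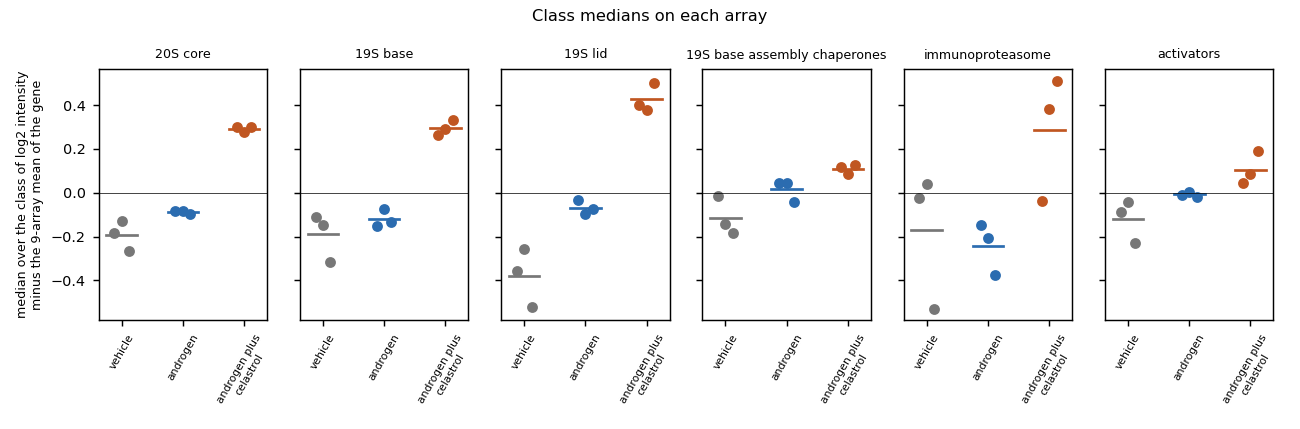
Median over the genes of 6 proteasome classes of log2 intensity minus the gene's 9-array mean, on each array (points), with the mean of the 3 arrays of a group (line). The celastrol arrays lie above all others in every panel but that of the immunoproteasome, where celastrol array 1, at -0.04, lies among the vehicle arrays; vehicle array 3 is the lowest array in all 6 panels.

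Androgen alone moved fewer of these genes. Against vehicle, 5 of 40 rose (PSMA5, PSMA6, PSMD8, PSMD5 and PSME4) and none fell in the limma fit, where 7.17% of all genes and 13.2% of those above the median intensity rose, and 5.84% of all fell (13.0% in either direction). On 18 of the 40 genes every androgen array lay above every vehicle array, with 14.1% of all genes, and on 6 below, with 14.2%. At an unadjusted p below 0.05, 16 were higher and 2 lower, again without a count over all genes. The share that rose, 12.5%, is near that of all genes above the median intensity. The median log2 fold change was 0.15, with -0.04 over all genes. Without vehicle array 3 the median was 0.04, with 6 genes past the threshold, 5 higher and 1 lower. With limma's trended and robust spread, 15 genes rose and 2 fell, and the share of all genes in that fit is not given here. Over the alternatives run, 615 to 1054 of all genes rose and 433 to 972 fell, with 872 and 711 in the limma fit.

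PSMD8, a lid subunit, changed most. It read 2862, 2951 and 2463 with vehicle, 4484, 5007 and 4271 with androgen and 5465, 5763 and 6601 with androgen plus celastrol, with androgen above vehicle and celastrol above androgen on every array. Androgen raised it by 0.73 ± 0.11 (adjusted p = 0.00229), or 1.66-fold. PSMA6 rose by 0.57 ± 0.08 (adjusted p = 0.00142) and PSMA5 by 0.45 ± 0.08 (adjusted p = 0.00639), at the intensities given above. The calls of these genes and PSME4 held in every alternative run, although no other probe set of PSME4 was called for androgen. In the limma fit no beta subunit and no base subunit of the regulator passed, but PSMB2 did so in 3 alternatives (adjusted p between 0.00349 and 0.0433) and PSMC2 in 4 (adjusted p between 0.00725 and 0.0476), and with limma's trended and robust spread PSMB5 and PSMD1 also passed as higher and PSMB4 as lower. In a fit over all probe sets, the dimmer probe set of PSMC2 stood at 0.01 ± 0.17 for androgen over vehicle (limma adjusted p = 0.988).

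The order vehicle, androgen, celastrol without overlap was seen in 15 of the 40 genes and in 3.75% of all genes. It held for 5 alpha subunits, for PSMB2 and PSMB5, for PSMC2 and PSMD1, for 5 of the 6 lid genes and for PSME4. In 5 others (PSMB1, PSMB4, PSMD4, PSMD10 and POMP) androgen lay lowest and celastrol highest, which 1.41% of all genes showed. In all, 30 of the 40 had every celastrol array above the other 6, with 13.0% of all genes, and PSMD5 alone lay lower with celastrol than with androgen and higher with androgen than with vehicle, with 5.79% of all genes. The 2 comparisons share the androgen arrays, so a chance deviation of these enters both. The orders are those of the probe set used for each gene. For androgen over vehicle, 1 further probe set each of PSMA1, PSMB2 and PSMD12 had the opposite sign (-0.07 ± 0.07, -0.01 ± 0.10 and -0.30 ± 0.11), none called. So had 1 each of PSMD5 and PSMF1 (-0.10 ± 0.31 and 0.08 ± 0.10), also not called. Of the 21 other probe sets of all members, 16 kept the sign in that comparison.

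The combined treatment against vehicle, the comparison free of the conflict over time, had the largest count. Here 30 of 40 genes rose and none fell, with 13.3% of all genes and 24.1% of those above the median intensity rising and 10.0% of all falling (23.3% in either direction). On 32 genes every celastrol array lay above every vehicle array, with 20.1% of all genes, and on PSME1 below, with 17.1%. The median was 0.43, with -0.01 over all genes. All 6 lid genes rose (median 0.82), 12 of 14 core genes (median 0.47), 7 of 8 base genes (median 0.43), POMP, and 1 or 2 genes in each of the other classes but the inhibitor. PSMD8 (1.11 ± 0.11, 2.15-fold, adjusted p = 0.000139) and PSMD11 (1.05 ± 0.11, 2.08-fold, adjusted p = 0.000158) passed 2-fold, and PSMD12 and PSME4 stood at 1.99-fold each. The dimmer probe sets of PSMD11 (0.20 ± 0.17), PSMD12 (0.32 ± 0.11) and PSME4 (0.89 ± 0.16 and 0.44 ± 0.10) differed less from vehicle. The core genes not called were PSMB4 (0.13 ± 0.07, adjusted p = 0.195) and PSMA4 (0.01 ± 0.08, adjusted p = 0.968), and the base gene not called was PSMC3 (0.39 ± 0.18, adjusted p = 0.159).

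Of the 30 rises over vehicle, 22 held under all alternatives. The 8 that did not were PSMA1, PSMA2, PSMB1, PSMB9, PSMD3, PSMD4, PSMD10 and PSME3, of which PSMD3 was lost in 10 alternatives and PSMA2 in 9 (adjusted p between 0.0527 and 0.138 for the pair). PSME1, at -0.22 ± 0.08 (adjusted p = 0.0873), was the one gene of the 40 with a negative difference from vehicle, and passed as lower in 3 alternatives, among them the fit without vehicle array 3 (adjusted p between 0.0119 and 0.0357 over the 3). Of the 30 genes, 7 were called in neither of the comparisons with the androgen arrays, and PSMB4 was called over androgen but not over vehicle.

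Other parts of the degradation machinery were read from lists of pathway genes. Of 12 further subunits and assembly chaperones, 5 were among the genes measured and none passed the threshold for celastrol over androgen (5 of 5 positive, median 0.26). Of all genes, 9.0% rose and 7.24% fell in that comparison. Over vehicle 3 rose, where 13.3% of all genes and 24.1% of those above the median intensity did. They were the ubiquitin receptor ADRM1 by 0.77 ± 0.18 (adjusted p = 0.0149), the small lid subunit SEM1 by 0.67 ± 0.14 (adjusted p = 0.00924) and the core chaperone PSMG1 by 0.41 ± 0.12 (adjusted p = 0.039). The PSMG1 call was lost in 11 alternatives (adjusted p up to 0.126), and ADRM1 in 2, of which 1 left out celastrol array 3. Over androgen, SEM1 stood at 0.48 ± 0.14 (adjusted p = 0.0571) and passed in 7 alternatives. PSMG2, the partner of PSMG1, differed from vehicle by -0.05 ± 0.07 (adjusted p = 0.664).

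Genes that make, carry and remove ubiquitin gave 6 rises and 2 falls among 17 with celastrol (median 0.12), where 9.0% of all genes rose and 7.24% fell. Neither fall passed without androgen array 1, without androgen array 3 or without celastrol array 2. SQSTM1, or p62, which carries ubiquitylated cargo to autophagy, had the largest change of these, at 2909, 2800.5 and 2898 with vehicle, 2161, 2148 and 2469 with androgen and 6440.2, 6034 and 6009 with androgen plus celastrol. Its celastrol arrays lay 1.45 ± 0.08 above androgen (adjusted p = 2.35e-05). UFD1 (0.60 ± 0.12) and NPLOC4 (0.38 ± 0.09), the adaptors of the unfolding ATPase VCP, rose, and VCP itself stood at 0.29 ± 0.10 (adjusted p = 0.0855). ZFAND5 rose by 0.49 ± 0.08, the proteasome-bound scaffold ECPAS by 0.43 ± 0.10 and the proteasome-bound thioredoxin TXNL1 by 0.39 ± 0.07. The calls of NPLOC4 (adjusted p from 0.0566 to 0.0886) and ECPAS (adjusted p from 0.0619 to 0.0780) were each lost in 4 alternatives that left out 1 androgen or celastrol array.

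UBA1, the main enzyme that activates ubiquitin, fell: it read 2689, 2214 and 3112 with vehicle, 2701, 2419 and 2779 with androgen and 1722, 1367 and 1891 with androgen plus celastrol, so that the celastrol arrays lay below all others. The change was -0.68 ± 0.16 (adjusted p = 0.018) and was lost without androgen array 1 or 3 or celastrol array 2 (adjusted p between 0.0607 and 0.0685). The proteasome-bound ligase UBE3C fell by 0.32 ± 0.08, lost in 7 alternatives (adjusted p up to 0.123). The deubiquitinases of the 19S regulator, USP14 and UCHL5, differed by 0.12 ± 0.07 and 0.11 ± 0.25 (adjusted p = 0.346 and adjusted p = 0.842).

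With androgen over vehicle, 1 of the 17 rose and 2 fell, against 7.17% and 5.84% of all genes. UCHL5 rose by 1.09 ± 0.25 (adjusted p = 0.0214), from 469, 435 and 217 to 767, 718 and 778. Vehicle array 3 was the low value of that group. The call was lost in 5 alternatives, 3 of them leaving out 1 androgen array and 1 a replicate block on the vehicle and androgen arrays (adjusted p up to 0.0731). UBQLN2, a shuttle between ubiquitin chains and the proteasome, fell, with -0.68 ± 0.09 (adjusted p = 0.00143). SQSTM1 fell, with -0.35 ± 0.08 (adjusted p = 0.0233), a call lost in 9 alternatives (adjusted p up to 0.596), including the replicate block.

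Of 12 measured regulators of proteasome genes, 5 rose with celastrol over androgen and none fell (median 0.06), with 9.0% and 7.24% of all genes. NFE2L1 read 1717, 1639 and 1754 with vehicle, 1754, 1597 and 1635 with androgen and 2768, 2604 and 2452 with androgen plus celastrol and rose by 0.65 ± 0.08 (adjusted p = 0.000865). The related NFE2L2, or NRF2, rose by 0.53 ± 0.08 (adjusted p = 0.00225) and KEAP1, which targets NFE2L2 for degradation, by 0.51 ± 0.11 (adjusted p = 0.0135). Of their small MAF partners, MAFF rose by 1.41 ± 0.09 (adjusted p = 3.95e-05) from androgen intensities of 44.4, 42.6 and 41.5 to 105, 118 and 119, and MAFG by 1.00 ± 0.21 (adjusted p = 0.0112). Only the call of KEAP1 among these 5 was lost in any alternative, without androgen array 2 or 3 (adjusted p = 0.0542 and 0.0543). NGLY1, the deglycosylase that processes NFE2L1, was unlike it: androgen raised it over vehicle by 0.65 ± 0.12 (adjusted p = 0.00616), and celastrol differed from androgen by -0.02 ± 0.12 (adjusted p = 0.957). NFYA, NFYB and NFYC, the subunits of the CCAAT-binding factor, were not called in any of the 3 comparisons in the limma fit, nor was the heat shock factor gene HSF1. With androgen over vehicle 2 of the 12 rose, with 7.17% of all genes, NGLY1 and STAT3, the second (0.32 ± 0.08, adjusted p = 0.0358) lost in 12 alternatives, the replicate block among them (adjusted p up to 0.147).

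**Figure D4:**
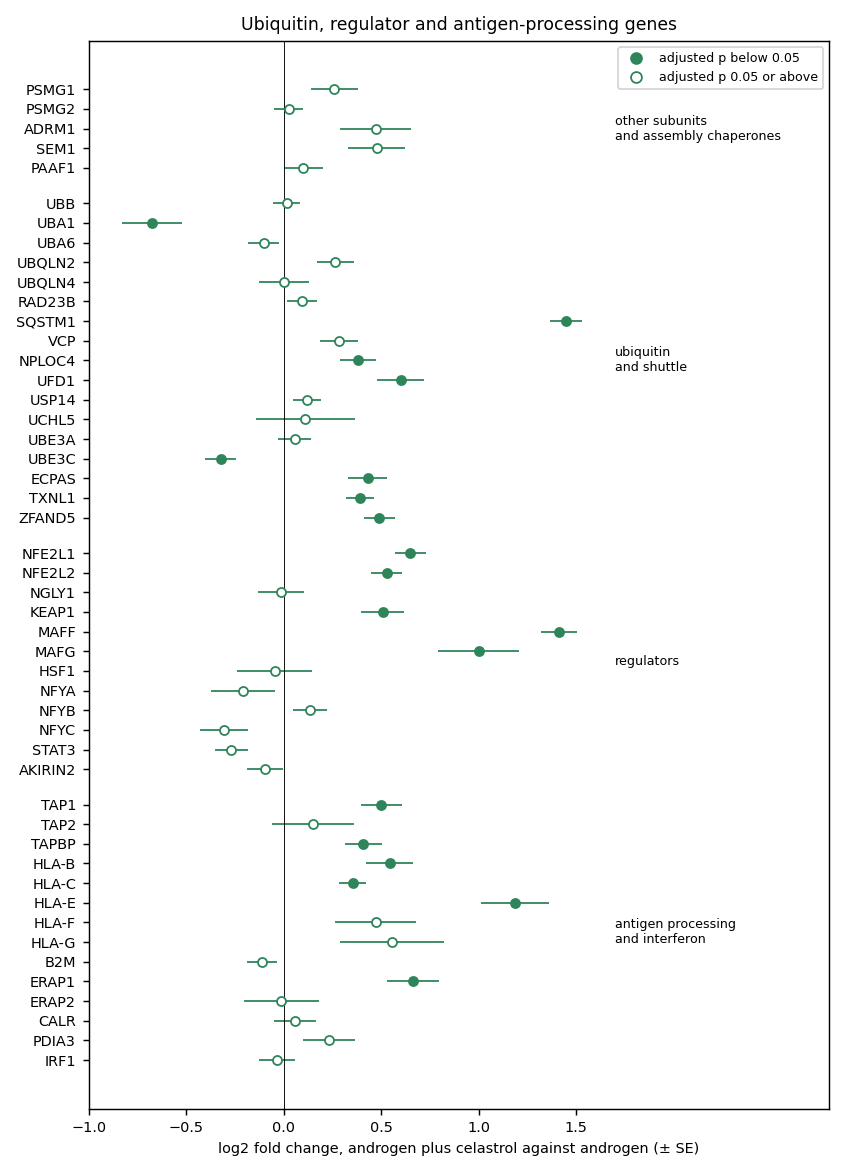
Log2 fold change for androgen plus celastrol against androgen, with its standard error from the limma fit (3 arrays a group), of the measured genes of 4 lists: other subunits and assembly chaperones, ubiquitin and shuttle factors, regulators, and antigen processing. Filled points have an adjusted p below 0.05 over all genes. SQSTM1 and MAFF, at 1.45 and 1.41, lie farthest to the right, and UBA1, at -0.68, farthest to the left.

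Genes of class I antigen processing, which present the peptides that proteasomes make, gave 6 rises of 14 with celastrol over androgen and no fall (median 0.38), with 9.0% and 7.24% of all genes. HLA-E read 428, 381 and 284 with vehicle, 317, 301 and 237 with androgen and 612, 743 and 586 with androgen plus celastrol and rose by 1.19 ± 0.18 (adjusted p = 0.00225). The peptide-trimming ERAP1 rose by 0.67 ± 0.13, HLA-B by 0.54 ± 0.12, the peptide pump TAP1 by 0.50 ± 0.10, its partner tapasin, TAPBP, by 0.41 ± 0.10 and HLA-C by 0.35 ± 0.07. HLA probe sets can bind related class I genes, so HLA-B, HLA-C and HLA-E are uncertain as separate genes, and HLA-C lost its call when probe sets were averaged (adjusted p = 0.402). HLA-B, TAP1 and TAPBP were lost in 4, 2 and 5 alternatives that mostly left out 1 array (adjusted p between 0.0509 and 0.0942), and the count was 3 without androgen array 2. TAP1 and TAP2 lie beside PSMB8 and PSMB9 on chromosome 6, in the order TAP2, PSMB8, TAP1 and PSMB9; with celastrol over androgen TAP2 differed by 0.15 ± 0.21 (adjusted p = 0.727). The interferon regulator IRF1 was dim, between 30.7 and 40.9 on all arrays, and differed by -0.03 ± 0.09 (adjusted p = 0.876).

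With androgen over vehicle, 1 of these 14 rose and 2 fell, where 7.17% and 5.84% of all genes did. The HLA light chain B2M rose by 0.47 ± 0.08 (adjusted p = 0.00358). TAPBP and ERAP1 fell, with -0.71 ± 0.10 (adjusted p = 0.00117) and -0.61 ± 0.13 (adjusted p = 0.0167), and both rose again with celastrol. The ERAP1 fall was lost without androgen array 2 or 3 and with averaged probe sets (adjusted p between 0.0546 and 0.517).

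Promoters were read for the 35 members with an entry in RefSeq (GRCh38.p14), over 250 bases before to 50 after the start, taking the first entry of each gene. The core of the antioxidant response element to which NFE2L1 and NFE2L2 bind, TGACNNNGC on either strand, was present in 11 of 35 members, or 31.4%, against 13.6% of 27305 promoters and 14.8% of the 9711 promoters of measured genes. It was present in 5 of the 18 searched members that rose and in 6 of the 17 others. Windows are shown for 3 members that rose with celastrol and for 2 that did not, PSMD5 and PSME1, to compare the matches. The match is in capitals and each sequence runs from 5′ to 3′ on the gene's own strand. The windows lie at chr17:38752617-38752665, plus strand (PSMB3), chr17:67366714-67366762, minus strand (PSMD12), chr2:53970999-53971047, minus strand (PSME4), chr9:120843028-120843076, minus strand (PSMD5) and chr14:24136088-24136136, plus strand (PSME1). Their matches begin 104, 165, 34, 134 and 86 bases before the start, and that of PSME4 reads on the opposite strand.
PSMB3: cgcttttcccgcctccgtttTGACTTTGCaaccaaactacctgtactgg
PSMD12: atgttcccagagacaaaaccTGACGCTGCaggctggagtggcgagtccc
PSME4: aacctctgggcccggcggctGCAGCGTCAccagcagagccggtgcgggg
PSMD5: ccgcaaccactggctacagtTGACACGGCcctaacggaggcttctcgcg
PSME1: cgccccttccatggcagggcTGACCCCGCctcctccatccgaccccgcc

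The core of the interferon-stimulated response element, GAAANNGAA on either strand, was present in 7 of 35 members, against 8.3% of all promoters and 6.9% of those of measured genes. It was present in 2 of 18 members that rose and 5 of 17 others. The windows of PSMB10 (chr16:67936851-67936891, minus strand) and PSME2 (chr14:24146611-24146658, minus strand) are shown because both belong to the interferon-inducible set and neither was called in any comparison. Their matches begin 21 and 28 bases before the start.
PSMB10: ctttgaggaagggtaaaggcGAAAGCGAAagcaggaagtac
PSME2: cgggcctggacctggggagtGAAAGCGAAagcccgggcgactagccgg

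The NF-Y box CCAAT was present in 15 of 35 members (42.9%), with 35.7% of all promoters and 37.4% of those of measured genes. The short repeat of the androgen response element, AGAACA, was present in 5 (14.3%), with 14.9% and 10.3%, and the heat shock element core GAANNTTC in 0 of 35, with 6.9% and 5.2%. These are matches of letters in a short window and show neither binding nor its absence.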

How the data were processed

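RNA of 9 LNCaP cultures was hybridised as biotin-labelled cRNA to Affymetrix arrays, per the labels' protocols. The authors deposited linear intensities, with 1 value for each probe set on each array, made with RMA, per the submitters' processing notes; its version is not given in the sources used here. RMA brings arrays to a common distribution, which removes differences in total RNA, and its median-based summary can give equal values on several arrays. The deposited arrays still differed in their upper quartiles, from 332.5 to 408.7. Without scanner files, background correction could not be varied, and scan dates were not used here.

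Of 22215 probe sets, 19724 have 1 gene in the platform annotation, 568 several and 1923 none listed, and 19707 were matched to current symbols by gene ID. Each of 12165 genes is represented by its single-gene probe set of highest mean; 15 of the 40 proteasome genes had several probe sets, 61 in all. Probe sets of PSMA1, PSMA7, PSMD4 and PSME3 are of a type that can bind related transcripts. A single limma fit (version 3.58.1, R 4.3.3) took the log2 values, at pseudocount 0, of the 9 arrays, with eBayes untrended and 6 residual and 2.70 prior degrees of freedom. The Benjamini-Hochberg adjustment of p-values ran over the 12165 genes, with a threshold of 0.05. They reflect the spread among these cultures, which may in part be technical. The fit was tested on simulated data.

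The members and the gene lists were chosen with earlier results of these data known. Intensities on every array were to be given, in each class, for the 3 members past the threshold with the largest change with celastrol over androgen and for the member with the smallest, for members past the threshold with androgen, and for PSMB5 to PSMB10, PSME1 to PSME4, PSMF1 and POMP; in the other lists up to 4 called genes were to be named. Further genes of those lists were named after their values were seen, as were the values of other probe sets. List genes not among the 12165 were not analysed here. The alternatives were the mean of a gene's probe sets, quantile normalization, subtraction of each array's median, a pseudocount of 16, leaving out the dimmest 25% of genes, a replicate block, the compared groups alone, eBayes with trend and robust spread, and leaving out each array.

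Replicates carry the numbers 1 to 3 in the labels. Deviations from the group means of arrays with the same number correlated, over genes, at 0.399, 0.371 and 0.629 between the vehicle and androgen groups. Numbers 1 and 2 were not told apart by this: vehicle array 2 with androgen array 1 gave 0.408 and vehicle array 1 with androgen array 2 gave 0.301. Whether the numbers mark pairs there was therefore not settled. The printed values leave the replicate block out, and it was run as an alternative. For androgen and androgen plus celastrol the values -0.090, 0.213 and -0.186 were found, and for androgen plus celastrol and vehicle -0.255, 0.113 and -0.289. The labels do not say whether equal numbers mark pairs here, and these values do not settle it.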

Additional observations from a re-analysis of the deposited data

How the results depend on the processing

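Over the alternatives run, the 3 counts of called proteasome genes and the 3 medians kept their direction. The count for celastrol over androgen ranged from 18 to 28 (27 higher and 1 lower) when 1 array was left out, and its median from 0.31 to 0.40. The count for the combined treatment over vehicle ranged from 25 to 29, with a median from 0.39 to 0.49, and the median was 0.37 under quantile normalization. The androgen comparison depended more on the processing: its count was 8 with a pseudocount of 16, 8 without the dimmest 25% of genes and 17 with a trended and robust spread, against 5, and its median was 0.092 under quantile normalization and between 0.044 and 0.18 with 1 array left out, lowest without vehicle replicate 3, with a count of 4 to 6. With the replicate block the counts were 20 for celastrol over androgen, 5 for androgen and 28 for the combined treatment; a block on the vehicle and androgen arrays alone, added after seeing the data, also gave 5. The block took no call from the androgen comparison of the 40 genes. Over all genes, the androgen comparison gave 615 to 1054 rises and 433 to 972 falls across the alternatives. Among the 21 probe sets of members not used, 6 were called for celastrol over androgen, all higher, and 19 had the sign of the one used. For androgen over vehicle 0 were called and 16 had that sign, and for the combined treatment over vehicle 6 were called, all higher, and 18 had it. The share called among all probe sets was not counted. With 3 arrays a group, a median standard error of 0.13 on the log2 scale limits what could be called, and PSMB8 and PSMB9 are dim. The conflict between 6 h and 24 h in the androgen labels was not resolved. The cause of the shifts between settings was not tested.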
